A study of Mus musculus with 6 samples.

Results

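The annexins are a family of proteins that bind acidic phospholipids when calcium is present. The 10 annexin genes described here, *Anxa1* to *Anxa9* and *Anxa11*, were chosen by symbol, and all 10 were among the 19078 genes of the deposited comparison. RNAseq was performed on immortalized mouse fibroblasts (MF) after poly(A) selection, with 3 libraries of *Ms4a15* OE cells and 3 of control cells. The *Ms4a15* OE cells are a selected pool, not a single clone, in which a CRISPR activation system and a guide raise *Ms4a15*, a gene of the membrane-spanning 4-domains family, from its own locus. By the study's methods the control cells carry an empty lentivirus, whereas their label reads wild type. Both come from immortalized mouse embryonic fibroblasts with a conditional *Gpx4* allele and Cre-ERt2, and no treatment is named in the labels of either group.

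An annexin consists of a conserved core and a variable N-terminal tail. The core is built from repeats, each of which can hold calcium between a loop and the head groups of a membrane, so that the protein attaches when cytosolic calcium rises and leaves when it falls. The tail differs between members and carries the sites for partners, among them S100 proteins and the penta-EF-hand proteins ALG-2 and sorcin. In fibroblasts annexins are known for resealing of the plasma membrane, for organizing actin beneath membranes, and for traffic of endosomes and secretory vesicles.

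The calcium-binding loop is shown first, because 9 of the 10 members hold it. In coding sequence the loop was searched in frame as GGNNNNGGNACN, which encodes glycine, any residue, glycine and threonine. Principal transcripts of GENCODE M21 were used, and codons were counted from 1 at the start codon. The first such loop of 5 members is printed with 4 codons on either side, with the loop in capitals. These members are the most abundant one and those with the largest changes in either direction.

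*Anxa2*, from codon 120 of 339: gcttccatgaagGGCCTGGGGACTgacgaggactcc

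*Anxa3*, from codon 33 of 323: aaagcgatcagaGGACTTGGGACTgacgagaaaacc

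*Anxa5*, from codon 28 of 319: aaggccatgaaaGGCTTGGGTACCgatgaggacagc

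*Anxa7*, from codon 175 of 463: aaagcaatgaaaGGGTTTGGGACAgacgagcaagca

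*Anxa8*, from codon 36 of 327: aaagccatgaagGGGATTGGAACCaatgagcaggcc

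Such loops numbered 2 in *Anxa1* and *Anxa2*, 3 in *Anxa3*, *Anxa4*, *Anxa5*, *Anxa7*, *Anxa8* and *Anxa11*, and 5 in *Anxa6*, whose coding sequence of 673 codons holds a doubled core. *Anxa9* had 0. Among the 21584 genes whose longest coding sequence was searched in the same way, 13.3% had at least 1 such loop. A match of letters describes the sequence and does not measure binding.

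Levels in each library were not analysed here. For each gene the deposited table gives a mean over the 6 libraries (counts scaled by library size factors), a log2 fold change with *Ms4a15* OE cells (OE cells) set against controls, and a standard error. The groups being of equal size, these were turned into a mean for each group, called the implied group mean and expressed in normalized counts. The spread between libraries enters only through the standard error, and the labels do not say whether the libraries of a group came from separate cultures. Size factors, worked out from genes whose total over all libraries was 1 read, ran from 0.887 to 1.14, so library depths differed by up to 1.28 times. *Ms4a15* itself had 1275 normalized counts in OE cells against 0.174 in controls and was at least 449-fold higher, taking 3 reads per control library (2.84 normalized counts) as the lowest level that can be told from 0. Of 12 fibroblast markers, 3 rose, 6 fell and 3 did not pass the threshold of an adjusted p below 0.05, 10 were above that floor in both groups, and the list summed to 318170 normalized counts in OE cells and 658262 in controls. The collagen genes *Col1a1*, *Col1a2* and *Col3a1* fell by 4.50, 2.44 and 2.96 on the log2 scale and *Pdgfrb* fell by 3.83, while *Thy1* (0.69), *Pdgfra* (0.60) and *Dcn*, from 0.624 to 23.6 normalized counts, rose. *Vim* and *Fn1* did not pass, and *Lum* was under the floor in both groups.

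Of the 10 annexins, 8 passed the threshold, an adjusted p below 0.05 in the Wald test over all genes. *Anxa1*, *Anxa2*, *Anxa3* and *Anxa7* rose and *Anxa5*, *Anxa6*, *Anxa8* and *Anxa9* fell in *Ms4a15* OE cells, while *Anxa4* and *Anxa11* did not pass. In these bulk libraries a lower level per cell and fewer cells with the transcript cannot be told apart. Of all genes tested, 42.9% passed, 21.5% higher and 21.5% lower. The mean of each annexin was 100 normalized counts or more, and among the 10440 genes with such a mean 65.6% passed, 30.7% higher and 34.9% lower. The median log2 fold change of the 10 annexins was 0.13 and the median of its size without regard to sign was 0.39, against -0.02 and 0.24 among those 10440 genes. The changes were small for 9 of the 10, between -0.48 and 0.55 on the log2 scale, and *Anxa8* stood alone at -1.28.

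**Figure D1:**
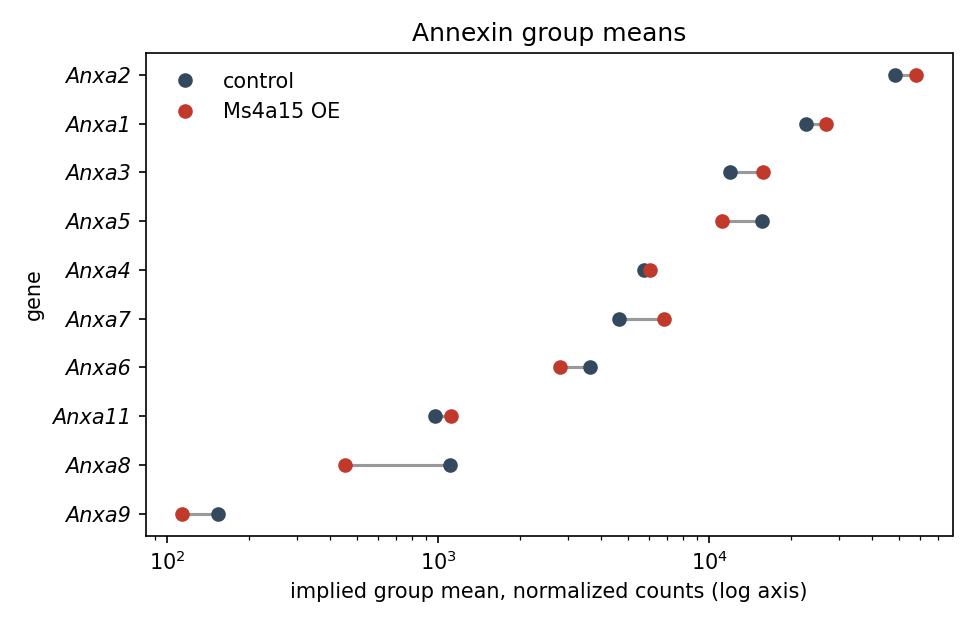
Implied group means of the 10 annexins in normalized counts on a log axis, with *Ms4a15* OE in red and control in blue. They span from *Anxa9*, with 114 and 154 normalized counts, to *Anxa2*, with 57808 and 48445, and the widest gap between the groups is that of *Anxa8*.

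Annexin transcripts were abundant. *Anxa2* had the 55th highest mean of all 19078 genes, *Anxa1* the 208th, *Anxa3* the 496th and *Anxa5* the 523rd. Divided by the length of the principal transcript, the order of levels in control was *Anxa2* (33480 normalized counts per kb), *Anxa1* (13585), *Anxa5* (9021), *Anxa3* (7465), *Anxa4* (2837), *Anxa7* (1629), *Anxa6* (1459), *Anxa8* (587), *Anxa11* (407) and *Anxa9* (82.2). Neighbours in this order differed by at least 1.12 times, the smallest step being from *Anxa7* to *Anxa6*. The standard errors imply a spread between libraries, beyond counting error, of 2.53% to 5.58% for all but *Anxa11* (7.37%) and *Anxa9* (12.5%). These percentages follow from the authors' DESeq2 fit and were not measured from single libraries. Length matters more than that spread, since division by the length of all annotated exons placed *Anxa5* above *Anxa1* and *Anxa6* above *Anxa7*. In *Ms4a15* OE cells, *Anxa3* (9904 normalized counts per kb) stood above *Anxa5* (6457), and *Anxa11* (465) above *Anxa8* (242). With the length of all exons, *Anxa5* remained above *Anxa3* in *Ms4a15* OE cells, while *Anxa11* was above *Anxa8* there under both lengths.

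The rises and falls partly offset each other in the sum. The 10 annexins added up to 128992 normalized counts in OE cells and 114976 in controls, 12.2% more, or 0.318% and 0.277% of all normalized counts. *Anxa2* made up 44.8% of the annexin counts in *Ms4a15* OE and 42.1% in control. *Anxa5* went from 13.6% in control to 8.66%, and *Anxa7* from 4.04% to 5.29%. No error is given for these sums and shares, which rest on group means only.

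*Anxa2* and *Anxa1* are the annexins best known for binding S100 proteins through their tails and for closing wounds in the plasma membrane. *Anxa2* forms a tetramer with S100A10 that links membranes to actin and serves as a docking site for plasminogen activation, and *Anxa1* pairs with S100A11 and, once secreted, acts on formyl peptide receptors. The first 15 codons of both, which encode the tail segment that S100 proteins bind, are printed to show how the tails differ where the loops are alike:

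*Anxa1*, first codons: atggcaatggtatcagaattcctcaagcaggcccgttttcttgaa

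*Anxa2*, first codons: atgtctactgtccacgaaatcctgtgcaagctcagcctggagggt

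*Anxa2* lies on the forward strand of chromosome 9 (GRCm38) from 69453620 to 69491795, with 13 exons in its principal transcript. It had 57808 normalized counts in OE cells and 48445 in controls. The log2 fold change was 0.25 (standard error 0.03, 95% confidence interval 0.20 to 0.31), with an adjusted p of 2.95e-16 in the Wald test. *Anxa2* was thus 1.19-fold higher, a small change measured with the narrowest error of the 10. *Anxa1* is on the reverse strand of chromosome 19 from 20373428 to 20390944, and had 26838 normalized counts in OE cells and 22742 in controls. Its log2 fold change of 0.24 (standard error 0.04, interval 0.16 to 0.32, adjusted p = 4.63e-08) overlapped that of *Anxa2*. On chromosome 19 the median log2 fold change of genes with a mean of at least 100 was -0.26, and the 20 such genes on each side of *Anxa1* had a median of -0.10. Neither *Anxa1* nor *Anxa2* passed when tested against a 1.2-fold change in place of no change, each with an adjusted p of 1.0.

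*Anxa7* and *Anxa11* have long tails, in coding sequences of 463 and 503 codons, and bind ALG-2 and sorcin. ANXA7, once called synexin, promotes fusion of secretory granules, and ANXA11 tethers RNA granules to lysosomes and takes part in cytokinesis. Both genes lie on chromosome 14, as does *Anxa8*. *Anxa7*, on the reverse strand from 20455260 to 20480133, had 6820 normalized counts in OE cells and 4645 in controls. With a log2 fold change of 0.55 (standard error 0.04, interval 0.48 to 0.63, adjusted p = 1.20e-42) it had the largest rise among the 10, 1.47-fold. It also passed against a null of a 1.2-fold change (adjusted p = 4.26e-12). *Anxa11*, on the forward strand from 25842156 to 25886804, had 1112 normalized counts in OE cells and 973 in controls. Its log2 fold change of 0.19 (standard error 0.09, interval 0.01 to 0.38, adjusted p = 0.0894) did not pass, and the interval reaches up to 0.38. Subtracting the median of its neighbours, 0.12, left 0.07 (adjusted p = 0.631). An antisense gene, *Anxa11os*, overlaps exons of *Anxa11*. The study's methods do not say whether the libraries kept strand. The strand setting of the counting is not given in the sources used here either. Reads of antisense partners may therefore not have been told apart. The same holds for *Anxa2*, *Anxa4* and *Anxa9*. In GENCODE, exons of *Anxa3* also overlap *Gm42603*, and those of *Anxa9* overlap *6330562C20Rik*, on the same strand. No strand setting separates reads of such overlaps.

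*Anxa3* and *Anxa4* have short tails. ANXA3 is known as an inhibitor of phospholipase A2 in vitro and ANXA4 for self-assembly on membranes, which it stiffens near sites of injury. *Anxa3*, on the forward strand of chromosome 5 from 96793339 to 96845966, had 15797 normalized counts in OE cells and 11907 in controls. The log2 fold change was 0.41 (standard error 0.04, interval 0.33 to 0.48, adjusted p = 6.87e-25), a 1.33-fold rise, and it also passed against a 1.2-fold change (adjusted p = 0.00129). *Anxa4*, on the reverse strand of chromosome 6 from 86736840 to 86793584, had 6057 normalized counts in OE cells and 5759 in controls. With a log2 fold change of 0.07 and an interval from -0.01 to 0.15 (adjusted p = 0.157), a change of *Anxa4* beyond 0.15 in either direction is outside the interval. Its neighbours had a median of 0.13, and subtracting it turned the sign of *Anxa4*, to -0.06 (adjusted p = 0.307).

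**Figure D2:**
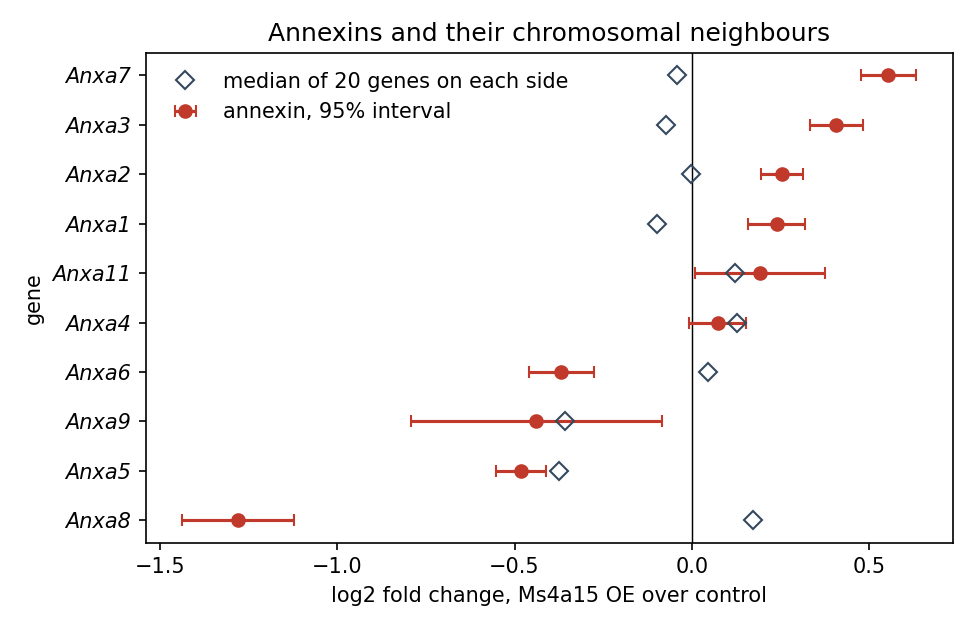
Log2 fold changes (OE cells against controls) for the 10 annexins with 95% confidence intervals in red, with open diamonds for the median over the 20 well-expressed genes on each side of each annexin. The diamonds of *Anxa5* and *Anxa9* lie near -0.37 and -0.36, close to the genes' own values, whereas that of *Anxa8* is at 0.17, opposite to its fall.

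The members that fell are described next. *Anxa8*, first described as a vascular anticoagulant, encodes a protein of late endosomes and is known from stratified epithelia. It lies on the forward strand of chromosome 14 from 34085981 to 34100571, with no other gene overlapping its exons. *Anxa8* had 454 normalized counts in OE cells and 1103 in controls. The log2 fold change was -1.28 (standard error 0.08, interval -1.44 to -1.12), with an adjusted p of 1.75e-55 in the Wald test. At 2.43-fold lower it had the largest change of the 10 in either direction, and 1.93% of the 10440 well-expressed genes had a lower log2 fold change. Its neighbours had a median of 0.17, and subtracting it gave -1.45.

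*Anxa5* encodes the annexin widely used to stain phosphatidylserine on dying cells. It is on the reverse strand of chromosome 3 from 36448923 to 36475894, and had 11176 normalized counts in OE cells and 15615 in controls. The log2 fold change was -0.48 (standard error 0.04, interval -0.55 to -0.41, adjusted p = 5.62e-39), a level 1.40-fold lower. On chromosome 3, however, 85.7% of the 505 well-expressed genes were below 0, with a median of -0.35, and the genes around *Anxa5* had a median of -0.37. Subtracting that median left -0.11 (interval -0.18 to -0.04, adjusted p = 0.00745). *Anxa9*, also on the reverse strand of chromosome 3, from 95296096 to 95307176, encodes the member without the loop letters and is known from epithelia. It had 114 normalized counts in OE cells and 154 in controls, the lowest of the 10, and a log2 fold change of -0.44 (standard error 0.18, interval -0.79 to -0.09, adjusted p = 0.0362). Subtracting the median of its neighbours, -0.36, ended the call (-0.08, adjusted p = 0.807). At its 3′ end *Anxa9* overlaps an exon of *Mindy1*, listed as *Fam63a*, which runs on the opposite strand and had 1260 and 936 normalized counts.

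*Anxa6*, with its doubled core and 26 exons, encodes a protein of the plasma membrane and of cholesterol-rich late endosomes. It lies on the reverse strand of chromosome 11 from 54979108 to 55033445. It had 2815 normalized counts in OE cells and 3632 in controls. Its log2 fold change was -0.37 (standard error 0.05, interval -0.46 to -0.28, adjusted p = 1.55e-14), or 1.29-fold lower, while its neighbours had a median of 0.05. Against a 1.2-fold change the adjusted p was 0.114.

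Ordered by log2 fold change, the intervals of neighbouring annexins overlapped except at 3 steps, from *Anxa3* to *Anxa2*, from *Anxa4* to *Anxa6* and from *Anxa5* to *Anxa8*. The number of loops did not sort the members by direction: *Anxa3* and *Anxa7* rose and *Anxa5* and *Anxa8* fell, all with 3 loops. On chromosome 14 *Anxa7* rose and *Anxa8* fell, whereas on chromosome 3 *Anxa5* and *Anxa9* both fell, as did most well-expressed genes there. The part of the chromosome in these changes was not tested.

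**Figure D3:**
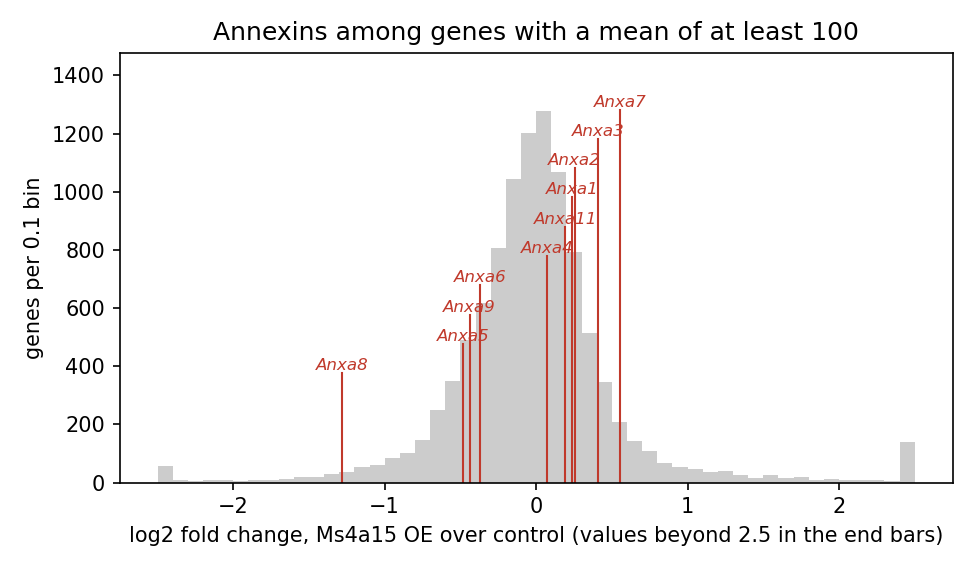
Histogram of log2 fold changes of the 10440 genes whose mean reached 100 normalized counts, in bins of 0.1 with values beyond the axis placed in the end bins, and with each annexin marked by a red line whose height has no meaning. *Anxa7* lies above 91.5% of these genes and *Anxa8* above 1.93%, and the other 8 annexins lie between.

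Promoters are shown for *Anxa8*, with the largest fall, and for *Anxa2*, with the highest level. They come from RefSeq on GRCm38, which gave a window for 8 of the 10 annexins (11 windows) and not for *Anxa3* and *Anxa6*. In the 250 bases before each start, 6 motifs were searched on both strands. Capitals mark any match, and the stretch of *Anxa2* ends where an annotated exon of the gene begins. The TATA box of *Anxa2* and 2 of its 3 GC boxes lie in the part of its window that is not printed.

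*Anxa8*, chr14:34085729-34085978, forward strand: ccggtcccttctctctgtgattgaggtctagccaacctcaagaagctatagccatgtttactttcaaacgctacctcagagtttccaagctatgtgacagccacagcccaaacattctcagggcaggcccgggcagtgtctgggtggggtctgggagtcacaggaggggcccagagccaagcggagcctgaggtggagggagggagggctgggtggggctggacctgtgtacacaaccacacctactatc

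*Anxa2*, chr9:69453433-69453619, forward strand: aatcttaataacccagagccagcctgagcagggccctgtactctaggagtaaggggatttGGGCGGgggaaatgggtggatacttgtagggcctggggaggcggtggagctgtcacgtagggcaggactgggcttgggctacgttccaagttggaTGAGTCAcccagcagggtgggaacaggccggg

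The AP-1 motif TGANTCA was found for *Anxa2* alone of the 8, and in 6.75% of the 32851 windows of the same length in the RefSeq table. The TATA box TATAAA was found for *Anxa1* and *Anxa2* (12.4% of all windows), and the GC box GGGCGG for *Anxa2*, *Anxa7* and *Anxa11* (32.7%). The TEAD motif GGAATG was found for *Anxa1* (12.6%), and the antioxidant response element TGACNNNGC, which can overlap the AP-1 motif, for *Anxa4* and *Anxa9* (10.2%). The CCAAT box CCAAT was found for none of the 8, against 33.8% of all windows. None of the 6 motifs was found for *Anxa5* or *Anxa8*. A match is a description of the letters, and binding of a factor was not measured.

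A further pair of annexin genes is in the table. *Anxa13*, known from intestinal and kidney epithelium, had 23.7 normalized counts in OE cells and 2.47 in controls, the latter under the floor. Its log2 fold change was 3.27 (interval 1.91 to 4.62, adjusted p = 9.77e-06 in the Wald test). *Anxa10* had a mean of 0.327 normalized counts and was under the floor in both groups. Of 11 epithelial markers in the table, 2 rose, 0 fell and 7 were under the floor in both groups, *Epcam* and *Cdh1* among them, and the list summed to 240.1 normalized counts in OE cells and 143 in controls, mostly *Krt14*. Their part in the results for *Anxa8*, *Anxa9* and *Anxa13* was not tested. Myeloid markers summed to 1727 and 492 normalized counts, led by *Lyz2*, with 2 of 7 higher, and endothelial markers to 239.6 and 41.7, led by *Cdh5*, with 3 of 6 higher, whereas *Ptprc* did not pass.

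Partner genes took part in both directions, and *S100a4* and *Dysf* had larger log2 fold changes in size than any of the 10 annexins. Of 18 listed genes in the table, 8 rose, 4 fell and 6 did not pass, with a median log2 fold change of 0.26. Among the 14 with a mean of at least 100, 12 passed (65.6% of all genes with such a mean did). *S100a10*, the partner of *Anxa2*, had 18803 normalized counts in OE cells and 18342 in controls, and its log2 fold change of 0.04 (interval -0.03 to 0.11, adjusted p = 0.504) did not overlap that of *Anxa2*. *S100a11*, the partner of *Anxa1*, fell to 15913 from 22507 normalized counts, a log2 fold change of -0.50 (standard error 0.03, adjusted p = 7.40e-51), opposite to *Anxa1*. Of the 6 S100 genes listed, 5 lie on chromosome 3, where subtraction of the neighbours' median gave 0.37 for *S100a10* (adjusted p = 8.40e-24) and -0.19 for *S100a11*. *S100a6*, whose product binds several annexins, fell to 33611 from 62603 normalized counts (log2 fold change -0.90, standard error 0.04, adjusted p = 3.28e-92). *S100a4*, another partner of ANXA2, rose to 18540 from 7174 (1.37, standard error 0.04, adjusted p = 3.21e-209), though it lies on the same chromosome. The neighbours of *S100a6* and of *S100a4* had a median of -0.31, and subtracting it gave -0.58 for *S100a6* and 1.68 for *S100a4*.

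**Figure D4:**
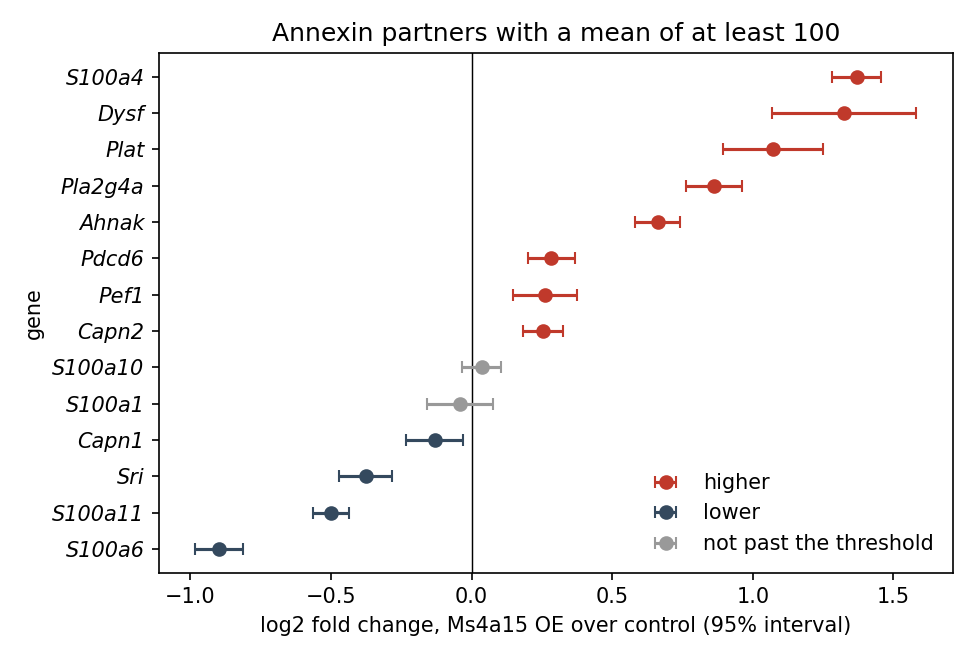
Log2 fold changes with 95% confidence intervals of the 14 annexin partners whose mean reached 100 normalized counts, in red where higher, blue where lower and grey where the threshold was not passed. *S100a4* at 1.37 and *S100a6* at -0.90 stand at the ends, and *S100a10* and *S100a1* straddle 0.

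*Ahnak*, a very large scaffold protein that binds the complex of ANXA2 and S100A10, rose from 24895 to 39397 normalized counts (log2 fold change 0.66, standard error 0.04, adjusted p = 1.20e-57). *Dysf*, the ferlin that acts with annexins in membrane repair, rose from 155 to 388 (1.32, standard error 0.13, adjusted p = 9.16e-23). *Plat*, tissue plasminogen activator, for which ANXA2 is a surface receptor, rose from 341 to 718 (1.07, standard error 0.09, adjusted p = 1.63e-30). *Pla2g4a*, cytosolic phospholipase A2, which ANXA1 is known to inhibit, rose from 3330 to 6058 (0.86, standard error 0.05, adjusted p = 2.62e-63). The partners of ANXA7 and ANXA11 went in opposite directions. *Pdcd6*, the gene of ALG-2, rose to 4224 from 3469 (0.28, standard error 0.04, adjusted p = 1.85e-10), and *Sri*, the gene of sorcin, fell to 2579 from 3348 (-0.38, standard error 0.05, adjusted p = 6.68e-14). Neither passed against a 1.2-fold change. The formyl peptide receptor gene *Fpr2* had a mean of 0.176 normalized counts and was under the floor in both groups.

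Genes of families with C2 domains rather than annexin repeats, many but not all of whose proteins attach to membranes with calcium, gave a wider range. Members were listed by family, and calcium binding of each was not checked. Of 31 listed copine, extended synaptotagmin, ferlin, synaptotagmin and related genes in the table, 7 rose, 5 fell and 19 did not pass, that is 38.7% called against 42.9% of all genes. Of the 12 with a mean of at least 100, 10 passed (65.6% of all such genes did), and the median size of log2 fold change was 0.47 for these 12 and 0.24 for all such genes. *Cpne5*, a copine, rose from 3.45 to 511 normalized counts, a log2 fold change of 7.21 (standard error 0.45, adjusted p = 1.26e-56). Its control mean was close to the floor of 2.84 normalized counts, so the size of this rise rests on few control reads. *Syt11*, a synaptotagmin of endosomal traffic, fell from 1583 to 445 (-1.83, standard error 0.07), and *Esyt3*, a tether between endoplasmic reticulum and plasma membrane, from 218 to 67.8 (-1.69, standard error 0.17). *Esyt2*, its relative, rose from 1759 to 2491 (0.50, standard error 0.06), and *Cpne2* from 1235 to 1983 (0.68, standard error 0.06). All 4 passed the threshold, with adjusted p-values of at most 9.41e-16.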

How the data were processed

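RNAseq libraries of 3 *Ms4a15* OE and 3 control samples of immortalized mouse fibroblasts were grouped by their genotype labels. Per the study's methods, the authors aligned reads with STAR to mm10 with UCSC knownGene annotation, counted them by gene with HTSeq-count and used DESeq2 for the comparison. The submitters' processing notes also name TopHat, Cufflinks and Cuffdiff. The strand setting of the counting is not given in the sources used here.

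The authors deposited 1 table of 19078 genes, which holds their comparison. It gives the mean signal over all libraries (counts divided by size factors, here normalized counts) and the log2 fold change with its standard error. The p-value and adjusted p-value of each gene were made by the authors from their comparison and deposited beside these. From the deposited log2 fold changes and standard errors the Wald test was recomputed, with Benjamini-Hochberg adjustment over all genes at 0.05. Both adjusted p-values called the same 8187 genes. Group means and floors of 3 reads were derived from the deposited mean signal and log2 values, and the floors cover counting error only. The 95% intervals came from the deposited log2 fold changes and standard errors. Nothing in the labels says that libraries of a group came from separate cultures, so p-values measure the spread between these samples, which may be technical.

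Python 3.11.15 with numpy 2.4.6, pandas 2.3.3, scipy 1.17.1 and matplotlib 3.10.9 was used. On simulated data of 19078 genes, the procedure recovered 199 of 200 genes changed by 1 on the log2 scale and called 14 unchanged ones. The noise was drawn from the same deposited standard errors that the test used, and the changed genes had means of at least 100. The simulation therefore checks the calculation only, and cannot show whether those errors are right. Far fewer genes were changed in it than the 42.9% called here. Positions and coding sequences came from GENCODE M21 and promoters from RefSeq, both on GRCm38 (mm10). Neighbours are the 20 genes on each side with a mean of at least 100, among 16640 genes placed by symbol. Named were the 10 annexins, *Anxa10*, *Anxa13*, *Ms4a15*, the 5 called genes with the largest change of each further list among means of at least 100, and partners named in advance whatever their values. The members and lists were chosen with earlier results of these data known. Alternatives were a minimum log2 fold change of 1, a test against a 1.2-fold change, adjustment over genes with a mean of at least 10, centring on the median, and subtraction of the neighbours' median.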

Additional observations from a re-analysis of the deposited data

How the results depend on the processing

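The count of 8 annexins called was 1 (*Anxa8*) when a log2 fold change of at least 1 was also required and 4 (*Anxa3*, *Anxa5*, *Anxa7* and *Anxa8*) in the Wald test against a 1.2-fold change. It was 8 with adjustment over genes with a mean of at least 10, 8 after centring on the median (a shift of -0.02) and 7 after subtracting the neighbours' median. For the 12 partners called, the first 2 alternatives gave 3 and 7, adjustment over means of at least 10 gave 12, centring gave 11, and subtracting the neighbours' median gave 14 (11 higher, 3 lower). That subtraction added *S100a10* and *S100a1* and turned *Capn1* from -0.13 to 0.15. For the 12 other membrane binders a log2 fold change of at least 1 gave 5. The counts of 1, 4, 3, 7 and 5 follow from the stricter criteria. The log2 fold change of *Anxa4* turned to -0.055 (adjusted p = 0.307) after subtracting the neighbours' median, and the cause was not tested. Of 29 named genes, 21 kept direction and side of the threshold in the test against a 1.2-fold change, after centring and after subtraction. The minimum log2 fold change of 1 and the adjustment over means of at least 10 were applied to counts only. Division of levels by the length of all exons was chosen after seeing the data. No paired analysis was possible because the table holds no values of single libraries, and for that reason leaving out each replicate, also planned, was not run. A library that stands apart could therefore not be looked for. The implied spread beyond counting error was widest for *Anxa9* and *Anxa11*, and *Anxa9* had the lowest mean of the 10.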

Other observations

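Among the listed genes of families with C2 domains, 2 genes at low levels also rose. These were chosen after their values were seen. *Syt7*, a synaptotagmin of lysosome exocytosis, had 27.7 normalized counts in OE cells and 0.943 in controls, under the floor, with an adjusted p of 1.16e-06 in the Wald test. *Fer1l4*, a ferlin relative, had 12.9 and 1.23 normalized counts, with an adjusted p of 0.00129. *Myof*, myoferlin, had 16788 and 16892 normalized counts and a log2 fold change of -0.01 (adjusted p = 0.899), against a rise of its relative *Dysf*. The neighbours of *Myof* had a median of -0.35, and subtracting it gave 0.34 (interval 0.28 to 0.41), which passed the threshold.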
